A study of Mus musculus with 52 samples.

Results

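Smooth muscle cells, pericytes and myofibroblasts carry a shared contractile program, and 10 genes of that program were followed across 4 treatment groups of transplanted pancreatic tumors. The genes were taken by symbol from the deposited table of normalized counts, which lists 27525 genes, and all 10 are in it. They are the smooth muscle actins Acta2 and Actg2, the actin-binding proteins Tagln and Cnn1, the smooth muscle myosin heavy chain Myh11, the myosin regulatory light chain Myl9, the intermediate filament Des, the focal adhesion adaptor Tgfb1i1, and the pericyte genes Rgs5 and Pdgfrb.

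The tumors grew from KPC cells, a mouse pancreatic tumor line, injected under the skin of the flank of male C57BL/6NHsd mice aged 8 to 10 weeks. Untreated tumors, tumors given the STING agonist ADU-S100 (2 µg into the tumor, once, on day 0), tumors of mice given the agonist antibody anti-LTbR against the lymphotoxin beta receptor (100 µg into the peritoneal cavity, 4 doses every few days) and tumors given both agents (combination) were all removed on day 14, with 8 individual tumors in each group. The study set the single agents beside their combination to ask what each adds to the formation of lymphoid structures in the tumor. Whole tumors were sequenced, so host stroma, vessels and any adjoining tissue are in the same library as the tumor cells, and in such samples fewer cells of a type cannot be told apart from less RNA per cell.

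In the contractile cell, actin and myosin filaments slide against each other once the myosin light chain is phosphorylated, and the filaments are anchored through desmin and focal adhesions. Transcription of many of these genes is driven by serum response factor with its cofactors of the myocardin family. Serum response factor binds the CArG box, an A/T-rich core between a CC and a GG. Pericytes wrap capillaries and depend on platelet-derived growth factor from the endothelium, which they sense through the receptor encoded by Pdgfrb. In tumors, fibroblasts that switch on Acta2 are called myofibroblasts and lie in collagen-rich stroma.

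The genes are spread over the genome. On GRCm38, Acta2 (ENSMUSG00000035783) lies at chr19:34241090-34255590 on the minus strand, Tagln (ENSMUSG00000032085) at chr9:45929619-45936058 on the minus strand, and Cnn1 (ENSMUSG00000001349) on the same chromosome at chr9:22099216-22109630 on the plus strand. Rgs5 (ENSMUSG00000026678, chr1:169655501-169695813) and Des (ENSMUSG00000026208, chr1:75360329-75368579) share chromosome 1, both on the plus strand. Myh11 (ENSMUSG00000018830) lies at chr16:14194535-14291372 on the minus strand, Myl9 (ENSMUSG00000067818) at chr2:156775420-156781658 on the plus strand, Actg2 (ENSMUSG00000059430) at chr6:83512905-83536265 on the minus strand, and Tgfb1i1 (ENSMUSG00000030782) at chr7:128246812-128255699 on the plus strand. The tenth gene, Pdgfrb, has the identifier ENSMUSG00000024620.

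RefSeq promoters were matched by symbol for 5 of the 10 genes (Acta2, Myl9, Cnn1, Des and Rgs5). The 250 bases before the RefSeq start are shown for Acta2 and Myl9, which rose and fell together from tumor to tumor as described further on, and for Rgs5. Over all tumors Rgs5 did not follow them as closely, though in part of the tumors it came closer to both. The bases are written in the direction of transcription, with capitals marking a CArG box or a site that departs from it at 1 of the 6 core bases. The windows are chr19:34255374-34255623 (minus strand) for Acta2, chr2:156775214-156775463 (plus strand) for Myl9 and chr1:169655251-169655500 (plus strand) for Rgs5, on GRCm38.p6. The GENCODE genes whose positions are given above begin further upstream for Acta2, Myl9 and Cnn1. Of the Acta2 window 217 bases lie inside the gene, of the Myl9 window 44 and of the Cnn1 window, which is not shown, 37. Distances are counted from the RefSeq start.
Acta2: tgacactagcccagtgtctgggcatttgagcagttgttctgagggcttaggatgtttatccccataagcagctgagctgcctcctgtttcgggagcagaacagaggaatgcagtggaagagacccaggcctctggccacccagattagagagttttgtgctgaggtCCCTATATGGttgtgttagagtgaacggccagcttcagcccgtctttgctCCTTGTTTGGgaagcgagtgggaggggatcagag
Myl9: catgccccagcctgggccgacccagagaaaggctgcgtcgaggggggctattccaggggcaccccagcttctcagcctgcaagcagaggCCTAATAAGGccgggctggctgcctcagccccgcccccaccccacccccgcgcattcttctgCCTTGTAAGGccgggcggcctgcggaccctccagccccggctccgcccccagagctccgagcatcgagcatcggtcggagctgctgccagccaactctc
Rgs5: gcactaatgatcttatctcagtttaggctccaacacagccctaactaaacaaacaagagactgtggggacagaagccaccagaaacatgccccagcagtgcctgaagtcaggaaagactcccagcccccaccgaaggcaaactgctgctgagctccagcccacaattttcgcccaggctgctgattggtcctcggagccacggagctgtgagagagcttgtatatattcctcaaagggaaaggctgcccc
Myl9 holds an exact CArG box that begins 161 bases before the start and a site with 1 departure at 99 bases. Acta2 holds a pair of sites with 1 departure each, at 84 and 34 bases before the start. No such site was found in the windows of Rgs5, Cnn1 and Des, searched on both strands. Among 32851 RefSeq promoters of 300 bases (250 before and 50 after the start), 1.63% hold an exact CArG box and 9.98% hold one with at most 1 departure in the core. A match is a match of letters only, and none of the files measures binding.

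Sequencing depth was even, with 12762453 to 15591986 recovered reads per tumor and medians of 14831777.5 (untreated), 14938421 (ADU-S100), 15222569.5 (anti-LTbR) and 14856162.5 (combination). Behind the genes stood between 5 reads (the lowest tumor for Cnn1) and 9798 reads (the highest for Des), with medians over the 32 tumors of 27 reads for Cnn1, 55.5 for Actg2, 233 for Myh11, 1797 for Acta2 and 2582 for Pdgfrb. Values below are normalized counts (reads divided by a size factor per library) unless a log2 scale is named. The carcinoma markers of the labelled tissue were present in every tumor, Krt18 at 1692 to 10794 and Epcam lower at 16.3 to 219. Skeletal muscle genes set the tumors apart within every group: the summed level of 21 such genes was between 9947 and 26528 in 12 tumors and between 101582 and 623778 in the other 20, with no tumor in between. The 12 tumors with little muscle RNA were 5 untreated, 2 ADU-S100, 2 anti-LTbR and 3 combination tumors. The log2 of this sum was therefore tried as a covariate, which was added after the values had been seen.

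Compared per kilobase of exon in the untreated tumors, Acta2 was the most abundant of the genes at 765 ± 148 (SD, n = 8) normalized counts per kb. Des (583 ± 605), Pdgfrb (466 ± 121) and Tagln (451 ± 166) followed, and these neighbours lay within each other's SD. The mean of Des is that of 3 high and 5 low tumors, described further on, and its median of 198 per kb lay below those of Tagln (473), Pdgfrb (459) and Myl9 (253). Myl9 stood at 257 ± 54.3 per kb and Rgs5 at 130 ± 22.1 per kb. The lowest were Actg2 (44.9 ± 19.3), Tgfb1i1 (44.5 ± 7.81), Myh11 (26.6 ± 6.73) and Cnn1 (13.1 ± 7.65) per kb, of which Myh11 and Cnn1 are the markers most specific to mature smooth muscle.

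**Figure D1:**
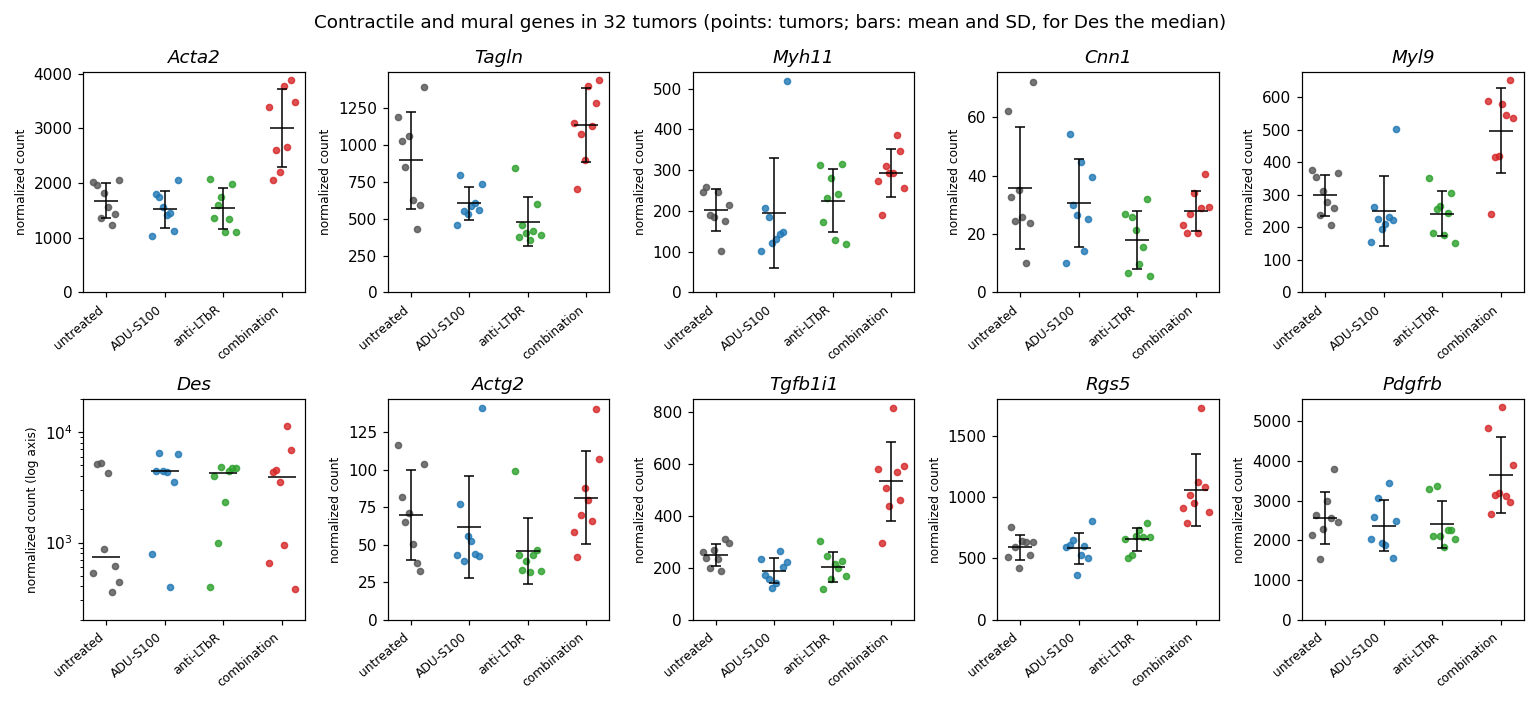
Normalized counts of the 10 genes (vertical axes, logarithmic for Des) in the untreated, ADU-S100, anti-LTbR and combination tumors, with 1 point per tumor, 8 per group, and bars for mean and SD (for Des the median). Combination tumors lie highest for Acta2, Tgfb1i1 and Rgs5, where 7, 7 and 8 of the 8 exceed every untreated tumor, whereas Cnn1 and Des show overlapping groups.

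Combination therapy raised 6 of the 10 genes over the untreated tumors and lowered none. The genes that rose were Tgfb1i1, Acta2, Rgs5, Myl9, Myh11 and Pdgfrb, at 1.43 to 2.14 times the untreated mean. Among all 16909 genes tested in this comparison 19.6% were higher and 23.6% were lower by the same rule (limma, adjusted p below 0.05). Tagln, Actg2, Des and Cnn1 did not pass. Tgfb1i1 alone passed with a fold change of at least 2 on the log2 scale, where 5.16% of all genes did so upward.

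Acta2, the actin isoform by which myofibroblasts are usually recognized, measured from 1228 to 2060 with a median of 1685 in untreated tumors and from 2056 to 3894 with a median of 3025 under the combination. All but 1 combination tumor exceeded every untreated tumor. The log2 difference was 0.83 ± 0.15 (SE; limma, adjusted p = 0.000395). Tgfb1i1 (also known as Hic-5, a focal adhesion protein that cooperates with nuclear receptors) had the steepest change, from 187 to 310 with a median of 249 untreated and from 294 to 814 with a median of 537 in the combination. Its log2 difference was 1.06 ± 0.16 (adjusted p = 0.000121), and 7 of 8 combination tumors lay above every untreated one. Myl9, the light chain whose phosphorylation triggers contraction, went from a median of 294 (206 to 375) to a median of 539 (242 to 652), with a log2 difference of 0.70 ± 0.18 (adjusted p = 0.00518). A single combination tumor, at 242, stayed among the untreated values.

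Myh11, the myosin of differentiated smooth muscle, was less firmly raised. Untreated tumors measured 102 to 258 with a median of 202, and combination tumors 189 to 385 with a median of 292. The log2 difference was 0.56 ± 0.17 (adjusted p = 0.0165). This call was lost in a joint fit of the 4 groups (adjusted p = 0.0681) and with the libraries above 14000000 reads only (adjusted p = 0.0643). With the skeletal muscle covariate the difference was 0.44 (adjusted p = 0.0489).

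The pericyte genes rose as well. Rgs5, which restrains G-protein signaling and marks pericytes, was the only one of the 10 genes whose groups did not overlap: untreated tumors measured 422 to 753 with a median of 612, and combination tumors 786 to 1733 with a median of 984. Its log2 difference was 0.82 ± 0.14 (adjusted p = 0.000265). Of all genes tested, 4.64% had combination tumors wholly above the untreated ones. Pdgfrb, the receptor through which pericytes respond to endothelial PDGF, measured 1529 to 3802 with a median of 2514 untreated and 2657 to 5365 with a median of 3165 in the combination. The groups overlapped, with 3 of 8 combination tumors above every untreated one, and the log2 difference was 0.51 ± 0.17 (adjusted p = 0.0219). It failed with the libraries above 14000000 reads only (adjusted p = 0.0734). All 6 calls stood with the skeletal muscle covariate, at differences of 1.17 for Tgfb1i1, 0.90 for Acta2, 0.75 for Myl9, 0.71 for Rgs5, 0.64 for Pdgfrb and 0.44 for Myh11.

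The remaining contractile genes gave no call against untreated tumors. Tagln, an actin-binding protein of smooth muscle, had medians of 940 (430 to 1395) untreated and 1140 (700 to 1441) combination, with a log2 difference of 0.40 ± 0.22 (adjusted p = 0.150). Actg2, the enteric smooth muscle actin, had medians of 68.3 (32.5 to 116) and 75.0 (42.0 to 141), with a difference of 0.25 ± 0.28 (adjusted p = 0.480). Cnn1, calponin of differentiated smooth muscle, had medians of 29.1 (10.004 to 72.2) and 27.8 (20.3 to 40.4), with a difference of -0.17 ± 0.31 (adjusted p = 0.680). In all 3 genes most combination tumors lay within the untreated range.

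Whether the genes moved by unequal amounts was tested directly by taking each one relative to Acta2 in the same tumor, a test chosen after the values had been seen. Of the 9 genes, Cnn1 and Tagln fell relative to Acta2 in the combination tumors. Cnn1 fell by 1.00 on the log2 scale (two-sided exact permutation test, n = 8 and 8, p = 0.00342, adjusted over 9 tests 0.0308) and Tagln fell by 0.43 (exact permutation p = 0.00917, adjusted 0.0413). Actg2 had a difference of -0.58 (exact permutation p = 0.019, adjusted 0.057). For Tgfb1i1, Rgs5, Myl9, Myh11, Pdgfrb and Des the adjusted exact permutation p was between 0.206 and 0.979.

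**Figure D2:**
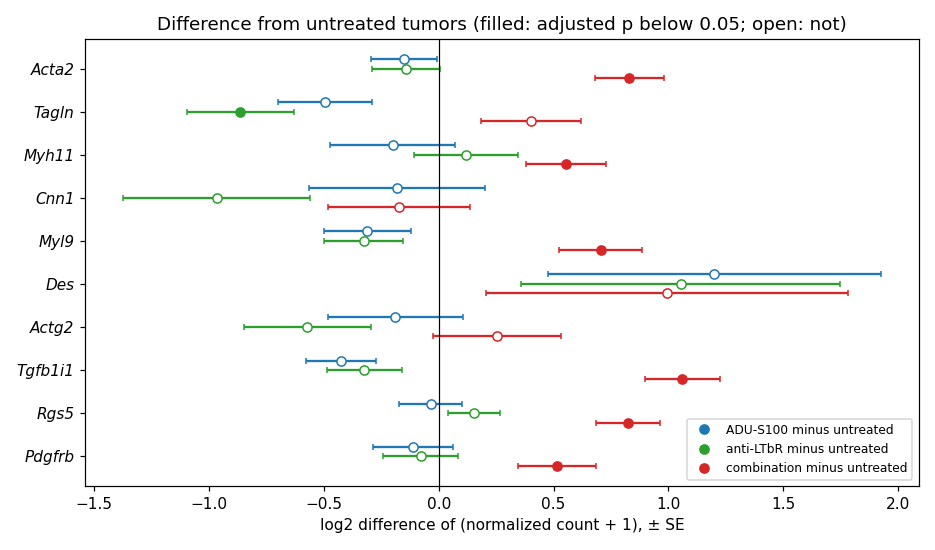
Log2 difference of normalized count + 1 from untreated tumors (horizontal axis, ± SE) for each gene, with ADU-S100, anti-LTbR and combination in separate colors and 8 tumors per group. Filled points passed limma's adjusted p below 0.05: 6 genes in the combination, Tagln alone under anti-LTbR and none under ADU-S100.

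No gene passed upward under either single agent. Under anti-LTbR, Tagln fell: its tumors measured 353 to 844 with a median of 412, 5 of 8 lay below every untreated tumor, and the log2 difference was -0.86 ± 0.23 (limma, adjusted p = 0.0223). This was 1 gene of 10, beside 8.1% of all 16691 genes lower and 7.21% higher, and it missed a 2-fold change, which 0.383% of all genes passed downward. With the skeletal muscle covariate the difference was -0.75 and the call was lost (adjusted p = 0.0689). Cnn1, with a median of 18.4 (5.57 to 31.8), had a difference of -0.97 ± 0.41 that did not pass (adjusted p = 0.109), and passed when the untreated tumor 6 was left out (adjusted p = 0.0486). Actg2 (31.6 to 99.1, median 41.1) had a difference of -0.57 ± 0.28 (adjusted p = 0.155), Myl9 (152 to 352, median 249.6) one of -0.33 ± 0.17 (adjusted p = 0.189) and Tgfb1i1 (116 to 301, median 207) one of -0.32 ± 0.16 (adjusted p = 0.170). In Cnn1, Myl9 and Tgfb1i1, 3 of 8 anti-LTbR tumors lay below every untreated tumor, and in Actg2 2 of 8 did. Acta2 (1096 to 2069, median 1484, difference -0.14), Rgs5 (500 to 788, median 675, difference 0.15), Pdgfrb (1821 to 3365, median 2177, difference -0.079) and Myh11 (118 to 315, median 236, difference 0.12) did not pass either, with adjusted p of 0.523, 0.352, 0.757 and 0.742.

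ADU-S100 gave no call for any of the 10 genes. By limma no gene of 16613 passed in this comparison, while 2408 (14.5%) had an unadjusted p below 0.05 and DESeq2 called 46 genes higher and 11 lower. None of the 10 genes was among these, but DESeq2 gave an adjusted p for only 4 of them (Acta2, Tagln, Des and Pdgfrb), so the other 6 could not be called, among them Tgfb1i1 with an unadjusted p of 0.0104. Tagln had a median of 573 (457 to 796), a log2 difference by limma of -0.50 ± 0.21 and an adjusted p of 0.313. Tgfb1i1 measured 122 to 262 with a median of 185, a difference of -0.42 ± 0.15 (adjusted p = 0.290), and 4 of its 8 tumors lay below every untreated tumor. Acta2 had a median of 1508 (1035 to 2050, difference -0.15), Rgs5 of 598 (360 to 806, difference -0.036), Pdgfrb of 2262 (1540 to 3432, difference -0.11) and Cnn1 of 28.2 (9.92 to 54.3, difference -0.18). The differences were -0.31 for Myl9, -0.20 for Myh11 and -0.19 for Actg2, and the adjusted p of these 7 genes lay between 0.421 and 0.913. ADU-S100 tumor 8 stood out with 518 for Myh11, 501 for Myl9 and 141 for Actg2, against group medians of 146, 224 and 48.3.

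Adding ADU-S100 to anti-LTbR raised 7 of the 10 genes and lowered none, beside 11.3% of all 16932 genes higher and 15.3% lower (1917 and 2587 genes; 2087 and 1743 with edgeR's TMM on recovered reads). They were Tgfb1i1 (log2 difference 1.38 ± 0.20, limma adjusted p = 0.000732), Tagln (1.26 ± 0.18, adjusted p = 0.000732), Myl9 (1.03 ± 0.20), Acta2 (0.97 ± 0.16), Actg2 (0.83 ± 0.25, adjusted p = 0.0228), Rgs5 (0.67 ± 0.14) and Pdgfrb (0.59 ± 0.16, adjusted p = 0.0123). Cnn1 (0.79 ± 0.32, adjusted p = 0.0777, and 0.0423 without anti-LTbR tumor 7), Myh11 (0.44 ± 0.21, adjusted p = 0.128) and Des (-0.059 ± 0.72, adjusted p = 0.963) did not pass. Tagln was above every anti-LTbR tumor in 7 of 8 combination tumors. Tgfb1i1, Tagln and Myl9 also passed with at least a 2-fold change, as 1.96% of all genes did upward. With the libraries above 14000000 reads only, the calls for Actg2 (adjusted p = 0.169) and Pdgfrb (adjusted p = 0.120) were lost. Adding anti-LTbR to ADU-S100 also raised 7 genes, beside 20.2% of 16811 genes higher and 26% lower, with Tgfb1i1 at 1.48 ± 0.19 (adjusted p = 2.40e-05), Myl9 at 1.02 ± 0.22, Acta2 at 0.98 ± 0.16, Tagln at 0.90 ± 0.14, Rgs5 at 0.86 ± 0.16 (adjusted p = 0.000362) and Pdgfrb at 0.63 ± 0.17 (adjusted p = 0.00690). Actg2 (0.44 ± 0.27, adjusted p = 0.192), Cnn1 (0.0096 ± 0.29) and Des (-0.20 ± 0.75) did not pass. Tgfb1i1 and Myl9 passed with at least a 2-fold change, beside 5.46% of all genes upward. Acta2 and Tgfb1i1 were above every ADU-S100 tumor in 8 of 8 combination tumors, and 5% of all genes were so placed. Myh11, at 0.76 ± 0.26 (adjusted p = 0.0231), belonged to these 7 genes and lost its call under edgeR (adjusted p = 0.0845) and DESeq2 (adjusted p = 0.0573). These comparisons share the combination tumors, so they are not independent of each other. Between the single agents none of the 10 genes passed, with differences from -0.78 (Cnn1) to 0.32 (Myh11), beside 3.38% of genes higher and 3.04% lower in anti-LTbR (563 and 506 genes, against 532 and 291 with edgeR on library totals).

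The interaction of the agents, the difference between the anti-LTbR effect in the presence and in the absence of ADU-S100, was tested over all 32 tumors. It was positive for 6 of the 10 genes and negative for none, beside 7.33% of all 17649 genes positive and 11% negative (1293 and 1947 genes, against 1476 and 1399 with edgeR's RLE scaling). The values on the log2 scale were 1.81 ± 0.26 for Tgfb1i1 (limma, adjusted p = 0.000150), 1.76 ± 0.28 for Tagln (adjusted p = 0.000352), 1.34 ± 0.29 for Myl9 (adjusted p = 0.00218) and 1.12 ± 0.23 for Acta2 (adjusted p = 0.00142). The pericyte genes had smaller ones, 0.71 ± 0.20 for Rgs5 (adjusted p = 0.0140) and 0.71 ± 0.25 for Pdgfrb (adjusted p = 0.0427). The Pdgfrb call was lost on leaving out any one of 18 of the 32 tumors, with adjusted p up to 0.0789, and with the skeletal muscle covariate (adjusted p = 0.0834). The Rgs5 call was lost with the libraries above 14000000 reads only (adjusted p = 0.073). Actg2, at 1.01 ± 0.40, did not pass (adjusted p = 0.0713) and passed without any one of 5 tumors. Myh11, at 0.64 ± 0.36 (adjusted p = 0.217), passed without ADU-S100 tumor 8 (adjusted p = 0.0366). Cnn1 (0.98 ± 0.52, adjusted p = 0.192) and Des (-1.26 ± 1.07, adjusted p = 0.432) did not pass. Tagln thus passed in the interaction and not in the combination against untreated tumors, and Myh11 the other way round.

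Endothelial genes rose beside the mural genes. Pecam1, an adhesion molecule of endothelium, had a mean of 626 ± 86.1 (SD, n = 8) in untreated tumors and 1027 ± 135 in combination tumors. In that comparison 10 of 10 blood endothelial genes rose, among them Tie1 (log2 difference 1.26), Erg (1.46) and Egfl7 (1.43). Taken relative to Pecam1 in the same tumor, none of Acta2, Myh11, Rgs5 and Pdgfrb passed the test against untreated tumors in any treated group. In the combination the log2 ratio of Rgs5 to Pecam1 was 0.02 ± 0.24 against -0.09 ± 0.25 untreated, a difference of 0.11 (two-sided exact permutation test, p = 0.395, adjusted over 12 tests 0.83). For Acta2 the difference was 0.12 (exact permutation p = 0.51), for Myh11 -0.16 (exact permutation p = 0.415) and for Pdgfrb -0.20 (exact permutation p = 0.376). Relative to Cdh5, another endothelial gene, Acta2, Myh11, Rgs5 and Pdgfrb differed by -0.072, -0.35, -0.078 and -0.39 in the combination, and no test passed there either.

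**Figure D3:**
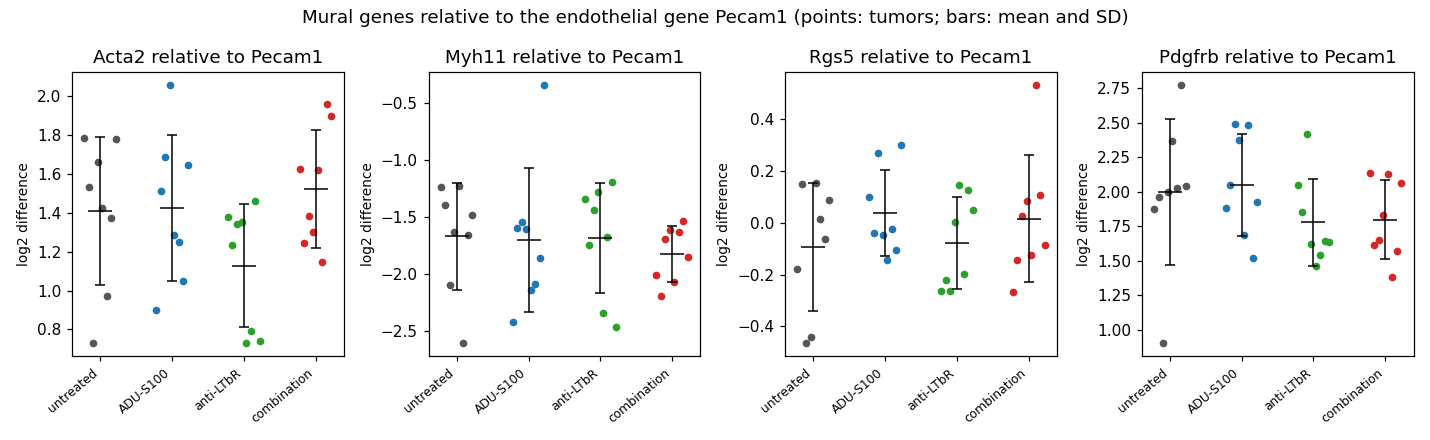
Log2 of Acta2, Myh11, Rgs5 and Pdgfrb relative to Pecam1 in the same tumor (vertical axes) by group, with 1 point per tumor, 8 per group, and bars for mean and SD. The groups overlap in all 4 panels, and the Rgs5 means are -0.09 untreated and 0.02 in the combination.

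Desmin did not follow the other genes. It forms the intermediate filaments of smooth, cardiac and skeletal muscle and also marks pericytes. In every group its values fell into a low range and a high range with a gap: 12 tumors lay between 356 and 985 and 20 tumors between 2327 and 11308. These were the same 12 and 20 tumors as for the skeletal muscle genes. Untreated tumors split into 5 between 356 and 880 and 3 between 4250 and 5298, and combination tumors into 3 between 379 and 942 and 5 between 3529 and 11308. The log2 differences from untreated were 0.99 ± 0.79 for the combination (limma, adjusted p = 0.322), 1.05 ± 0.69 for anti-LTbR (adjusted p = 0.295) and 1.20 ± 0.73 for ADU-S100 (adjusted p = 0.416). With the skeletal muscle covariate they turned to -0.19, -0.27 and -0.092, none of which passed.

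Within the 20 tumors of the high range, Des followed the muscle sum with Pearson r = 0.878 (permutation p = 1e-05, the smallest that 100000 resamples can give) and Spearman rho = 0.749 (permutation p = 0.00024). Within the 12 tumors of the low range r was 0.783 (permutation p = 0.00358) and rho 0.832 (permutation p = 0.00137). Adjusted over both ranges, the largest of these p was 0.00358. Leaving out the 2 tumors farthest from the median muscle sum gave r = 0.774 in the high and 0.595 in the low range. The genes most like Des over all tumors were Pdlim3, Trim72 and Cap2, with r within the high range of 0.944, 0.911 and 0.927 and within the low range of 0.972, 0.972 and 0.876. The list of 21 skeletal muscle genes had no member below a median of 10, and Ckm, the muscle creatine kinase, ranged from a lowest value of 698 in an untreated tumor to 52504 in combination tumor 6. None of the 21 genes passed in the combination against untreated tumors, though their median log2 difference was 1.46 beside -0.02 for all genes.

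**Figure D4:**
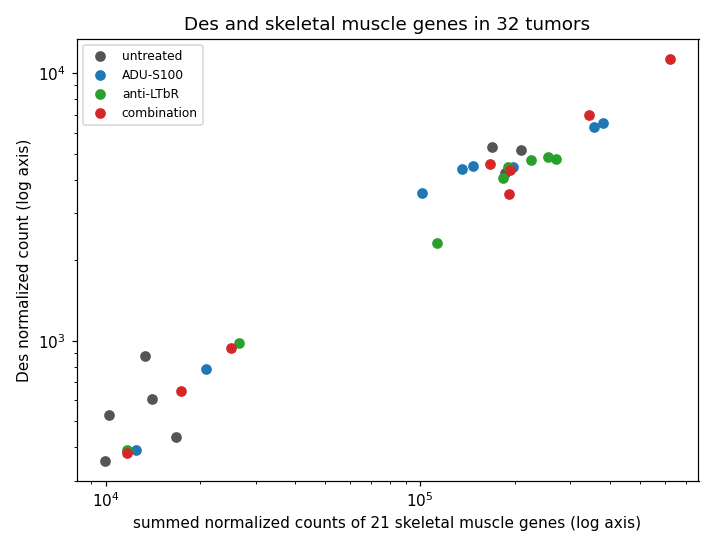
Des normalized count (vertical axis, logarithmic) against the summed normalized count of 21 skeletal muscle genes (horizontal axis, logarithmic) in 32 tumors, colored by group. Tumors form a low cloud of 12 and a high cloud of 20, and each group has tumors in both.

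From tumor to tumor within a group, the contractile genes moved together. Deviations of log2(value + 1) from the group mean were correlated over the 32 tumors for 36 pairs of the genes other than Des, with permutation within groups and adjustment over the 36 pairs. Among Acta2, Tagln, Myh11, Cnn1, Myl9 and Actg2, all 15 pairs were positively correlated, with Pearson r from 0.604 to 0.873 (largest adjusted permutation p = 0.00084) and Spearman rho from 0.583 to 0.909 (largest adjusted permutation p = 0.00118). Leaving out the 2 farthest tumors of each pair left r between 0.509 and 0.844. Within the 12 tumors with little muscle RNA these pairs had r from 0.682 to 0.978, and within the other 20 from 0.478 to 0.927. Myh11 with Myl9 (r = 0.873) and Acta2 with Myl9 (r = 0.867) were the closest pairs. How often other genes reach such r was not tested, so the values do not show that moving together is particular to the contractile genes. Outside the set, Gm4610 had r = 0.800 with Cnn1, above the closest contractile gene (Tagln, r = 0.711). Gm6789 had r = 0.813 with Actg2, beside r = 0.806 for Tagln. For Acta2, Tagln, Myh11 and Myl9 the closest gene was another contractile gene. Cnn1, whose promoter window held no CArG site, had r = 0.690 with Acta2 and r = 0.678 with Myl9, and no promoter was matched for Myh11, Tagln and Actg2.

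Pairs that include Tgfb1i1, Rgs5 or Pdgfrb were looser, with r from -0.003 to 0.568 and 5 of 21 pairs passing on Pearson r. The closest of these was Tgfb1i1 with Pdgfrb (r = 0.568, permutation p = 0.0011). Rgs5 with Pdgfrb, the pericyte pair, had r = 0.124 and rho = 0.228 (permutation p = 0.529 and 0.232). Acta2 with Rgs5 had r = 0.167. By the same measure Tgfb1i1 (r = -0.548), Pdgfrb (r = -0.467) and Rgs5 (r = 0.377) varied with the skeletal muscle sum, beside r = 0.985 for Des and -0.189 to 0.281 for the other genes. Within the 12 tumors with little muscle RNA and the other 20, Tgfb1i1 with Pdgfrb had r = 0.428 and 0.204, Rgs5 with Pdgfrb 0.236 and 0.429, and Acta2 with Rgs5 0.0231 and 0.432. In the same order Rgs5 had r = 0.0132 and 0.686 with Myl9, -0.0891 and 0.661 with Myh11, and -0.0211 and 0.572 with Tagln. With Cnn1 it had -0.193 and 0.399, and with Actg2 0.111 and 0.342. Tgfb1i1 with Rgs5 reached 0.784 in the 20 tumors, against 0.164 in the 12, so these pairs were not equally loose in both ranges, a difference that was not tested. These values within ranges were added after the pooled ones had been seen. All these values share the library and its size factor.

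**Figure D5:**
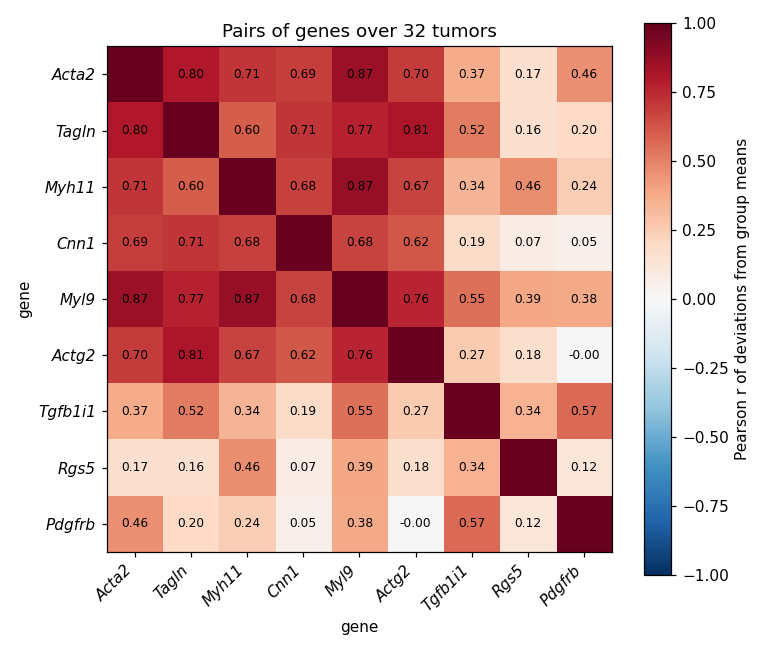
Pearson r between pairs of the 9 genes other than Des (both axes list the genes), computed on deviations from group means over 32 tumors, with red positive and blue negative. The block of contractile genes holds r from 0.604 to 0.873, and Rgs5 with Pdgfrb has 0.124.

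By the same measure over 32 tumors and 17649 genes, and leaving out the 10 genes themselves, the genes most like Tgfb1i1 were Scarf2 (r = 0.933), Col5a2 (r = 0.922), a fibrillar collagen chain, and Nfatc4 (r = 0.911). Those most like Rgs5 were Msrb3 (r = 0.832), 2510009E07Rik and Ecm2, and those most like Pdgfrb were Cttnbp2 (r = 0.833), Gpsm1 and Cachd1. Outside the 10 genes, the nearest to Acta2 were Btf3-ps2 (r = 0.794), Gm50429 and Gm8292, those to Tagln were Hs6st2 (r = 0.788), Gm50429 and Rpl39l, and those to Myl9 were Rpl39l (r = 0.780), Btf3-ps2 and Hnrnpa1l2-ps. Apart from the 10 genes, Myh11 was nearest to Gm5778 (r = 0.775), Btf3-ps2 and Nts, Cnn1 to Gm4610 (r = 0.800), Gm11687 and Gm6061, and Actg2 to Gm6789 (r = 0.813), Gm8960 and Gm5302. Symbols beginning with Gm or ending in ps are largely predicted genes and pseudogenes, and reads of processed pseudogenes can belong to their parent genes.

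Other genes of the smooth muscle program were read in the combination against untreated tumors beside the 19.6% of all genes that were higher and the 23.6% that were lower. Of 24 further genes listed for smooth muscle 7 rose and 4 fell, with a median log2 difference of 0.54. The list is not limited to contractile proteins. Some of them moved with the muscle RNA: before the covariate Synm, an intermediate filament protein, had differences of 1.59, 1.60 and 1.63 in the combination, anti-LTbR and ADU-S100 against untreated tumors, none of which passed, where the 21 skeletal muscle genes had medians of 1.46, 1.67 and 1.59. With the skeletal muscle covariate 10 of the 24 rose and 4 fell with a median of 0.25, beside 18.8% of all genes higher and 21.3% lower, and Synm then passed in the combination with 0.41 (adjusted p = 0.00466). Mylk, the kinase that phosphorylates the myosin light chain, rose by 0.70 ± 0.11 (limma, adjusted p = 0.000115) and Ptgis, prostacyclin synthase, by 1.35, whereas Cald1, an actin-binding caldesmon, fell by 0.37. Of 5 tested factors around serum response factor none rose and Fhl2 fell by 0.26 (adjusted p = 0.0407). With the skeletal muscle covariate the Fhl2 difference was -0.23 and the call was lost (adjusted p = 0.0932). Srf (0.11, adjusted p = 0.134) and Mrtfb (0.19, adjusted p = 0.0791) did not pass. Myocd, the cofactor most specific to smooth muscle, had a median below 10.

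Of 17 further pericyte genes tested, 10 rose and 2 fell, with a median of 0.57. Gja4, a gap junction protein of arterial vessels, rose by 1.28 and Anpep by 0.95, while Tbx18, a transcription factor of mural cells, fell by 0.73. Of the PDGF genes, Pdgfb, the endothelial ligand of Pdgfrb, rose by 0.58 ± 0.08 (adjusted p = 6.57e-05), Pdgfra, the fibroblast receptor, rose by 0.90, and Pdgfa fell by 0.44. Among 12 genes of the TGF-beta pathway, which drives myofibroblast formation, 6 rose and 5 fell with a median of -0.05: Tgfb2 rose by 0.84, and Tgfb1 fell by 0.42 and Smad3 by 0.71.

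The fibroblast genes that passed in the combination against untreated tumors all rose. Of 14 myofibroblast matrix genes 8 rose and none fell, with a median of 0.95 and the smallest adjusted p for Sparc (1.25), Col1a2 (1.66) and Col3a1 (1.58). Of 13 other fibroblast genes 9 rose and none fell, with a median of 1.01 and the smallest adjusted p for Col14a1 (2.01), Dpt (1.95) and Dcn (1.52). Of 10 tested genes of lymphoid stroma, the fibroblast network of lymphoid tissue, 7 rose, with the smallest adjusted p for Vcam1 (1.16), Ccl21a (1.93) and Icam1 (1.15). With the skeletal muscle covariate 7 rose as well. Ccl19 (0.56, limma adjusted p = 0.199), Ltbr (-0.13, adjusted p = 0.190) and Cxcl13 (-0.96, adjusted p = 0.101) did not pass there. Madcam1 and Cr2 of the same list had medians below 10. The lists were chosen with results of these data known, and the median of all 16909 genes was -0.02.

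Other cell types shifted in the same comparison. Of 8 epithelial tumor cell genes 5 fell. The summed level of the 8 was 19391 to 32893 in untreated and 8707 to 18155 in combination tumors. Krt8 and Krt18 weigh most in this sum, with untreated means of 9520 and 7356 beside a median sum of 24149. Krt18 fell by 1.46, Krt8 by 0.92 and Krt7 by 1.27, while Epcam (0.56, adjusted p = 0.309), Muc1 (0.21, adjusted p = 0.353) and Cdh1 (-0.27, adjusted p = 0.618) did not pass. Of 10 leukocyte genes 8 rose, and their summed level was 6594 to 10258 untreated and 9764 to 13964 in the combination. Of 6 genes of Schwann cells and nerve 4 rose and 1 fell, with sums of 716 to 1202 and 721 to 1729. Epidermal genes (sums of 2413 to 40916 untreated and 1542 to 59791 in the combination) and adipocyte genes (1397 to 13124 and 4109 to 23281) varied widely in both groups, and none of the 8 genes of either list passed. Of 5 tested cardiac and satellite cell genes 2 rose and 1 fell, with Pax7, Myf5 and Myh6 at medians below 10. The part of these shifts in the contractile and mural results was not tested.

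Under anti-LTbR alone, where 7.21% of all genes were higher and 8.1% lower, blood endothelial genes passed upward in 4 of 10, further pericyte genes in 3 of 17 with 1 downward, and myofibroblast matrix genes in 1 of 14 with 2 downward, with medians of 0.34, 0.11 and -0.01. In the interaction, where 7.33% of all genes were positive and 11% negative, myofibroblast matrix genes were positive in 11 of 14 and negative in 1 with a median of 1.49. Blood endothelial genes were positive in 9 of 10 and further pericyte genes in 8 of 18, and further smooth muscle genes gave 4 positive and 3 negative of 24.

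Acta2, Actg2 and the skeletal muscle actin Acta1 are near-identical paralogs, so their split of reads depends on the counting. Acta1 reached 119203 in a combination tumor and Acta2 at most 3894, and the part of Acta1 reads in the values of Acta2 and Actg2 was not tested. With the skeletal muscle covariate the differences from untreated tumors were 0.90 for Acta2 and 0.26 for Actg2 in the combination, -0.073 and -0.46 under anti-LTbR, and -0.23 and -0.31 under ADU-S100, without a change of call. Between both deposited tables the 10 genes were scaled alike, with median ratios of 0.974 to 0.975.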

How the data were processed

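Bulk polyA RNA-seq was made from individual tumors, and groups and replicate numbers follow the sample labels. The table the authors deposited for the 32 libraries is a signal, estimated reads per gene divided by a size factor per library. In the larger table the authors deposited (52 libraries), also a signal, values below 300 reads were whole multiples of 1 read (100% within 0.01), and reads were recovered from it. The submitters' processing notes name cutadapt 1.9, HISAT2, StringTie, STAR and Partek. Which aligner made each table was not settled. Of the 20 libraries of the other experiment, 15 have contradictory labels. None of the 20 enters a comparison. Per-sample columns left unused number 0. The deposited gene set enrichment table of the authors (scores and p-values) was not used.

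Values were tested as log2(value + 1) with limma 3.58.1 in R 4.3.3 (trend, 2 groups of 8, Benjamini-Hochberg adjustment over all genes, filterByExpr with a minimum of 10), and the interaction over 32 tumors. Log2 differences understate changes of low genes. Ratios were tested by exact permutation with scipy. edgeR 4.0.16 and DESeq2 1.42.0 on recovered reads, other filters, pseudocounts and samples were alternatives. The fits were tested on simulated data. Positions are from GENCODE M21 (GRCm38) and promoters from RefSeq. P-values measure the spread between tumors. The members and lists were chosen with earlier results of these data known. All 10 genes are covered in every comparison (in that of the single agents by their range), with at most 3 genes of each other list by smallest adjusted p in the combination against untreated tumors. For likeness, the 3 genes with the highest r outside the 10 are named. Synm, Epcam, Muc1, Cdh1, Ccl19, Ltbr and Cxcl13 were named after their values were seen. The full genotype of the tumor line is not reported here.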

Additional observations from a re-analysis of the deposited data

Results flagged for a closer look

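Single tumors lay far from the others of their group (Dixon's test) in 5 of 40 groups of gene and treatment, where chance gives about 1 in 20. ADU-S100 tumor 8 had 518 normalized counts for Myh11, 501 for Myl9 and 141 for Actg2. Anti-LTbR tumor 1 had 99.1 for Actg2, and combination tumor 6, the tumor with the highest Ckm, had 1733 for Rgs5.

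The effect of anti-LTbR differed between tumors with and without ADU-S100 for 6 genes, by the interaction term in limma over all 32 tumors (adjusted p below 0.05). The differences on the log2 scale were 1.12 for Acta2, 1.76 for Tagln, 1.34 for Myl9, 1.81 for Tgfb1i1, 0.71 for Rgs5 and 0.71 for Pdgfrb.

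Among the libraries of the other experiment, which enter no comparison, 2 of the 5 that carry the combination in all their labels exceeded each of the other 51 libraries of the larger table in several of the genes. Tumor 3 had 7748 for Tagln, 5270 for Myl9, 35251 for Des, 850 for Actg2 and 2074 for Tgfb1i1. The highest of the other libraries were 2662, 670, 11943, 145 and 854. Tumor 4 had 615 for Myh11 and 2841 for Rgs5.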

How the results depend on the processing

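Of the counts of the 10 genes that passed in each comparison, 85 stayed within 1.5 times the reported count under the alternatives that kept the same tumors or restricted them by depth, and 5 moved. Requiring at least a 2-fold change as well left 1 gene in the combination against untreated tumors, 0 under anti-LTbR, 3 against anti-LTbR and 2 against ADU-S100. With the skeletal muscle covariate 0 genes passed under anti-LTbR against untreated tumors, because the Tagln call was lost. Leaving out each tumor in turn gave 1 to 2 passing genes under anti-LTbR against untreated tumors, the higher count without untreated tumor 6. The cause of these changes was not tested, other than the stricter rule itself.

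Calls for single genes changed in few places beyond the fold rule. Myh11 in the combination against ADU-S100 was lost with edgeR (adjusted p = 0.0845 with TMM), DESeq2 (0.0573) and the libraries above 14000000 reads (0.182), and the Pdgfrb interaction was lost under 5 alternatives (adjusted p = 0.0552 to 0.157). The libraries above that depth number 25 of 32, so this alternative also has fewer tumors.

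The replicate numbers do not pair the tumors: the mean correlation of same-numbered tumors was -0.0855 to 0.186 over the 6 comparisons, and in no comparison were all 8 pairs above 0.1. With the replicate block 5 genes passed in the combination against untreated tumors (Myh11 was lost, adjusted p = 0.0619), 8 against anti-LTbR (Cnn1 was added, adjusted p = 0.0472), 7 against ADU-S100 and 5 in the interaction (Pdgfrb was lost). The block moved the number of all genes called under anti-LTbR from 2555 to 1660 and between the single agents from 1069 to 445.

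Under the alternatives run, the differences that turned direction had passed no test. Leaving out single tumors was run for the treated groups against untreated tumors, the combination against anti-LTbR and the interaction, and not for the other 2 comparisons. For Des, the skeletal muscle covariate gave -0.19 (combination), -0.27 (anti-LTbR) and -0.092 (ADU-S100) against untreated tumors, 0.093 against anti-LTbR and 0.18 in the interaction. For Des in the combination against anti-LTbR (-0.06 as reported), edgeR gave 0.33 (TMM), 0.34 (RLE) and 0.31 (library totals), DESeq2 gave 0.34, and leaving out single tumors gave -0.44 to 0.32. For Des against ADU-S100, edgeR gave 0.13, 0.11 and 0.10 and DESeq2 0.11. Cnn1 against ADU-S100 (0.01 as reported) was -0.10 (TMM), -0.11 (RLE), -0.10 (library totals), -0.11 (DESeq2) and -0.31 with the deeper libraries. Pdgfrb under anti-LTbR became 0.022 with the deeper libraries and 0.068 with the covariate, and Myl9 between the single agents became 0.048 with the deeper libraries. Without single tumors, Myh11 under anti-LTbR ranged from -0.014 to 0.24 and Pdgfrb from -0.18 to 0.0087, and under ADU-S100 Cnn1 ranged from -0.40 to 0.012 and Rgs5 from -0.11 to 0.058. With Cdh5 in place of Pecam1, the ratio of Acta2 became -0.17 (ADU-S100) and -0.072 (combination), that of Rgs5 -0.055 (ADU-S100), -0.20 (anti-LTbR) and -0.078 (combination), and that of Pdgfrb -0.13 (ADU-S100), and the other 30 ratio values kept their direction and side.

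Counts over all genes moved by over 1.5 times as follows. Under anti-LTbR against untreated tumors 2555 calls became 1537 with the deeper libraries and 1306 with the covariate, and the combination against anti-LTbR went from 4504 to 1450 and the interaction from 3240 to 1568 with the deeper libraries. Under ADU-S100, 0 calls became 1 to 7 with other settings of limma and edgeR and 57 with DESeq2. Between the single agents, 1069 became 1636 with DESeq2, 710 without a filter and 475 in the joint fit.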

Other observations

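In the same 5 combination libraries of the other experiment, Acta2 ranged from 746 to 3479 with a median of 1444, Rgs5 from 687 to 2841 with a median of 1297 and Pdgfrb from 792 to 2203 with a median of 1358, in normalized counts of the larger table. In the 15 libraries assigned to no group, Acta2 ranged from 586 to 2130 with a median of 1026, Rgs5 from 417 to 1791 with a median of 746 and Pdgfrb from 1088 to 2505 with a median of 1344. In the 32 libraries of the comparisons the same table gives Acta2 a median of 1811, Rgs5 678 and Pdgfrb 2655. Cnn1 was low throughout, at 13.04 to 49.1 in the 5 libraries and 6.01 to 38.7 in the 15. Ckm reached 6660 in the 5 and 3723 in the 15 libraries, with medians of 1967 and 394, beside a median of 12848.5 in the 32.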
